A study of Mus musculus with 8 samples.

Results

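Mouse samples labelled as cerebral cortex, from a series on the genes that FGF2 switches on and off in astroglia, were compared after FGF2 given with the p38 inhibitor SB202190 and after vehicle. The arrays were taken by their labels: they were the 2 arrays of FGF2 with SB202190 and the 2 arrays of vehicle, 4 of the 8 arrays of the series. Of the other arrays, 2 carried samples with FGF2 alone, which are given beside the main comparison, and 2 carried samples with FGF2 and the MEK inhibitor U0126, which entered the estimate of the spread and are not described. Each array held total RNA from an extract with its own number. All 45101 probe sets entered the normalization, and 13173 genes, with 1 probe set each, were tested. Every sample with SB202190 also received FGF2, and no group received SB202190 alone, so that the part of each agent in a difference from vehicle cannot be told apart. The sources used here do not give doses, times, strain or age, or say whether the cells were cultured or taken from tissue. The second sample with SB202190 bears another word for its treatment type (acclimatization) than the remaining samples (wait). The labels do not tell whether a group's 2 samples had separate origins, and the p-values therefore rest on a spread between samples that may be technical.

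FGF2 is a secreted growth factor that binds FGF receptors with heparan sulfate as a coreceptor. The receptors act through RAS and the kinases RAF, MEK and ERK, and ERK in turn induces its own inhibitors of the Sprouty, Spred and Dusp families. FGF receptors, stress and cytokines also feed the p38 kinases, which phosphorylate transcription factors and the kinase MK2 (gene Mapkapk2), and MK2 protects mRNAs with AU-rich ends from decay. SB202190 blocks the ATP site of p38α and p38β (genes Mapk14 and Mapk11). Astrocytes carry FGF receptors and are known to divide, to lower some of their mature functions and to secrete growth factors when they receive FGF2.

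The defining markers of astrocytes gave signal on every array. Gfap, the intermediate filament of astrocytes, had 1942 and 1778 with SB202190, 2144 and 2256 with FGF2 alone and 3182 and 3237 in vehicle. Slc1a3, a glutamate transporter, had 1367 and 1310.1 with SB202190, 1221 and 1235 with FGF2 alone and 1720.2 and 1563 in vehicle. These are deposited signals on a linear scale, for which the median of an array was 22.3 to 27.8. The median was 23.04 and 23.6 on the arrays with SB202190, against 27.8 and 26.6 on the vehicle arrays, while the trimmed mean was equal on all arrays. The Gapdh control probe sets, whose 3′ over 5′ signal ratio is a sign of RNA integrity, gave ratios of 0.753 and 0.697 with SB202190, against 0.719 and 0.720 in vehicle. The second FGF2 array stood apart in its spike-in controls, with a cre signal of 10269.8 where the other arrays had 7578 to 8276. Arrays with SB202190 correlated with each other at 0.984 and with the vehicle arrays at 0.947 to 0.948 over the log2 values.

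FGF2 with SB202190 left a broad difference from vehicle in both directions. Of 13173 genes tested, 2378 were higher with SB202190 than in vehicle and 2345 were lower, which is 18.1% and 17.8% of the genes, 35.9% together. All counts of list members against vehicle below are to be read beside these shares. A gene was called higher or lower at an adjusted p under 0.05 in limma, and every log2 change below is FGF2 with SB202190 over vehicle, with its SE, unless another pair is named. The signals printed are the deposited ones, and the log2 changes come from quantile-normalized log2(signal + 1.77), which understates the change of genes with low signals. A change of at least 2-fold was called for 380 genes that were higher, 2.88%, and 628 that were lower, 4.77%. At least 4-fold were 54 of the higher and 92 of the lower genes. In 4721 of the 4723 called genes the groups did not overlap, which nearly always goes with a call on 2 arrays a side and adds no support to it. Over all 27023 probe sets tested 7839 were called, 29.0%. With each array centred on its median in place of quantile normalization, the median change of all genes was 0.18 instead of 0.01, and 4058 genes were called higher and 1436 lower. Small changes are therefore to be read against that shift.

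**Figure D1:**
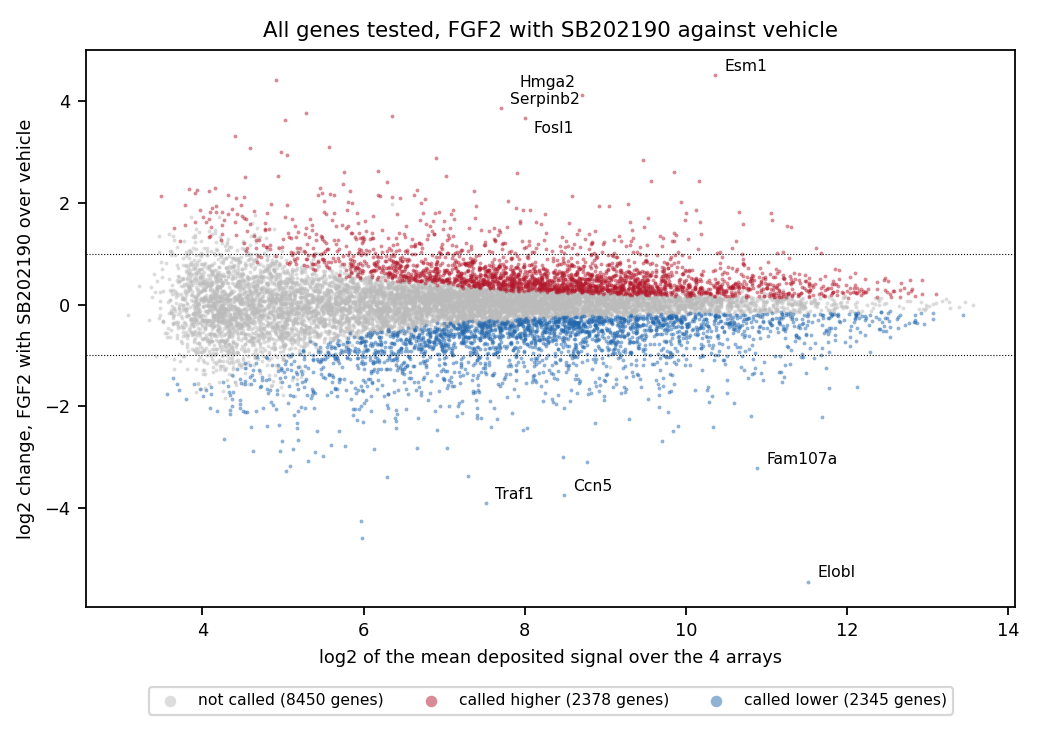
Each point is 1 of 13173 genes, with the log2 of its mean deposited signal over the 4 arrays on the x axis and its log2 change in FGF2 with SB202190 over vehicle on the y axis; dotted lines mark a 2-fold change. Genes called higher (red, 2378) and lower (blue, 2345) are nearly equal in number, and the lowest point, Elobl, lies at -5.45.

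With FGF2 alone 2489 genes were higher than vehicle and 2504 lower, 18.9% and 19.0% of those tested and 37.9% together. This comparison shares the vehicle arrays with that of FGF2 with SB202190, and its values are given below only beside those of the same genes. The difference between FGF2 with SB202190 and FGF2 alone was tested on its own and was called for 398 genes, 3.02%. Of these 174 were higher with SB202190, 1.32%, and 224 were lower, 1.7%. Without the intensity trend in the estimate of the spread limma called 0 genes in this comparison, where 2240 had an unadjusted p under 0.05 with it. Without the first FGF2 array 84 genes were called, without the second 82, without the second array with SB202190 101 and without the first 306. Of the 64 genes that the naming rule took and this comparison called, 15 kept the call whichever of these arrays was left out. They were Ier3, Gadd45a, Nwd1, Hmox1, Srxn1, Txnrd1, Taldo1 and Plat, which were higher with SB202190, and Nupr1, Tgfbi, Elobl, Foxj1, Timp3, Id3 and Vcam1, which were lower. Every other difference from FGF2 alone named below lost its call without at least 1 of these arrays.

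The 12 genes raised furthest above vehicle had diverse roles, among them secreted proteins, enzymes and transcription factors. The 12 highest and 12 lowest genes were taken from called genes whose groups did not overlap, so that their lack of overlap is no further result. Esm1, the secreted proteoglycan endocan, had 2307 and 2749 with SB202190, 2027 and 1975 with FGF2 alone and 104 and 117 in vehicle. Both arrays with SB202190 lay far above both vehicle arrays, with a log2 change of 4.51 ± 0.11 (adjusted p = 1.77e-11). Hmga2, a chromatin protein of progenitor cells, had 787 and 791 with SB202190, 820.1 and 830.5 with FGF2 alone and 54.9 and 40.3 in vehicle. It was 4.11 ± 0.12 log2 higher than vehicle with SB202190 (adjusted p = 7.25e-11) and 4.18 ± 0.12 higher with FGF2 alone. Serpinb2, an intracellular and secreted inhibitor of plasminogen activators, had 413 and 367 with SB202190, 254 and 239 with FGF2 alone and 25.3 and 31.5 in vehicle. Its log2 change was 3.86 ± 0.17 (adjusted p = 2.54e-09). Fosl1, which encodes the AP-1 subunit Fra-1, had 492 and 454 with SB202190, 358 and 347 with FGF2 alone and 39.5 and 37.9 in vehicle, a log2 change of 3.67 ± 0.16 (adjusted p = 2.22e-09).

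The other 8 of the 12 highest genes had vehicle signals below the median of the arrays. Csn3, the milk protein kappa-casein, had 68.1 and 50.3 with SB202190 and 0.99 and 1.62 in vehicle, a log2 change of 4.41 ± 0.48. Il11, a cytokine of the IL-6 family, had 56.1 and 65.1 with SB202190, 85.2 and 101 with FGF2 alone and 1.59 and 7.90 in vehicle, and its log2 change was 3.63 ± 0.41. Cyp24a1, the enzyme that inactivates vitamin D, had 132 and 169 with SB202190 and 7.05 and 18.1 in vehicle, a log2 change of 3.70 ± 0.30. Each of these genes was brighter on both arrays with SB202190 than on either vehicle array, as the choice of genes required. The remaining members were Tmem171 (3.77 ± 0.34), Etv4, an ETS factor (3.32 ± 0.47), Cyb5r2, a cytochrome b5 reductase (3.09 ± 0.41), Tafa2, a chemokine-like secreted protein (3.08 ± 0.39), and Alkbh2, which repairs alkylated DNA (2.999 ± 0.38). The largest adjusted p of the 8 genes was that of Etv4, 9.82e-05. With 16 in place of 1.77 added to the signals, 7 of them moved by more than 1.5 times: Csn3 to 2.14, Tmem171 to 2.19, Il11 to 1.97, Etv4 to 1.59, Cyb5r2 to 1.98, Tafa2 to 1.60 and Alkbh2 to 1.71, all still called.

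The genes lowered furthest held a cilia gene, a connexin, matricellular and metabolic genes. Elobl had 143 and 136 with SB202190, 300.1 and 267 with FGF2 alone and 5348 and 6100.5 in vehicle. It changed by -5.45 ± 0.08 against vehicle (adjusted p = 6.59e-14) and by -0.998 ± 0.08 against FGF2 alone (adjusted p = 2.78e-05). Fam107a, an actin-binding protein that glucocorticoids induce, had 366 and 407 with SB202190, 536 and 539.6 with FGF2 alone and 3381 and 3396 in vehicle, a log2 change of -3.22 ± 0.08 (adjusted p = 1.77e-11). Ccn5, a matricellular protein, had 52.1 and 44.3 with SB202190, 79.5 and 66.9 with FGF2 alone and 634 and 706 in vehicle, a log2 change of -3.75 ± 0.14 (adjusted p = 7.85e-10). In all 3 genes both arrays with SB202190 lay below both vehicle arrays, as the choice of genes required.

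Traf1, an adaptor of TNF receptors, had 21.7 and 19.3 with SB202190 and 347 and 343 in vehicle, with a log2 change of -3.91 ± 0.21 (adjusted p = 1.33e-08). Rsph4a, part of the radial spoke of motile cilia, had 20.9 and 30.99 with SB202190 and 288 and 291 in vehicle, with a log2 change of -3.37 ± 0.23 (adjusted p = 1.47e-07). Gjb2, the gap junction protein connexin 26, had 11.3 and 11.02 with SB202190 and 161 and 128 in vehicle, and its log2 change was -3.39 ± 0.36 (adjusted p = 8.03e-06). The signals of these genes with SB202190 were near or below the median of an array. The rest of the 12 lowest were Bbox1, the last enzyme of carnitine synthesis (-4.58 ± 0.44), 2210409E12Rik (-4.26 ± 0.56), Paqr6, a membrane progestin receptor (-3.27 ± 0.57), Acsf2, an acyl-CoA synthetase (-3.18 ± 0.53), 1700094D03Rik (-3.09 ± 0.12) and Hdc, which makes histamine (-3.08 ± 0.51). With 16 added to the signals Bbox1 moved to -2.81, 2210409E12Rik to -2.61, Paqr6 to -1.81, Acsf2 to -1.82 and Hdc to -1.83. 1700094D03Rik moved to -1.93 when its probe sets were averaged, and all 6 genes were still called.

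**Figure D2:**
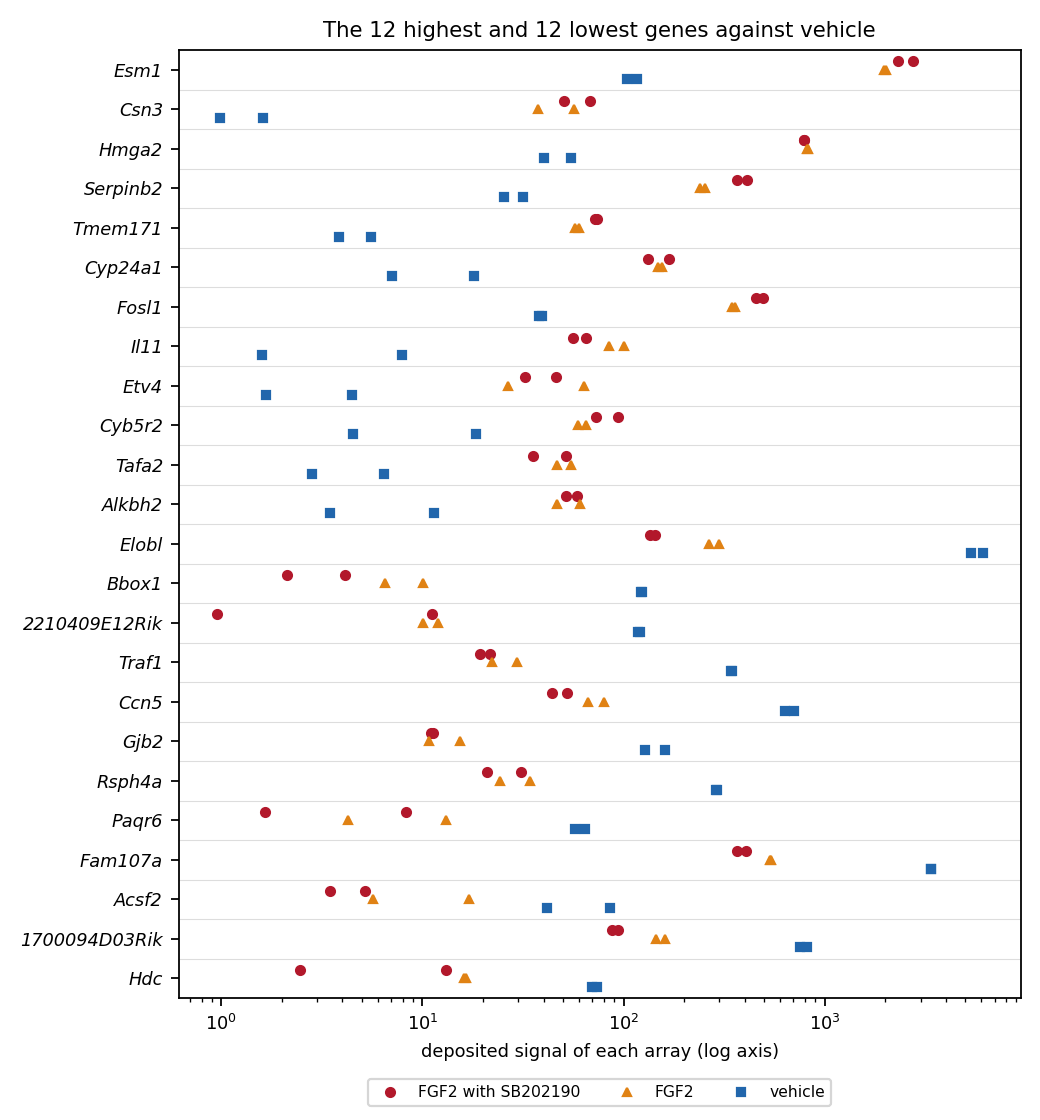
Deposited signal of each array, on a log axis, for the 12 highest (top) and 12 lowest genes of FGF2 with SB202190 against vehicle; circles are FGF2 with SB202190, triangles FGF2 and squares vehicle, 2 arrays each. The genes were taken from those whose groups do not overlap, so that in all 24 both circles lie on the same side of both squares.

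The known feedback genes and targets of ERK stood above vehicle almost throughout in the presence of SB202190. Of 31 members tested, 27 were higher, 2 lower and 2 not called, so that 87.1% were higher where all genes had 18.1%. Their median log2 change was 1.15, against 0.01 over all genes, and 25 members were higher with FGF2 alone. The summed signal of the list was 24501 and 25899.8 with SB202190, 23192 and 24265 with FGF2 alone and 11653 and 12128 in vehicle.

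Among the phosphatases that switch MAP kinases off, Dusp6, which acts on ERK, had 1498 and 1691 with SB202190, 1174 and 1276 with FGF2 alone and 258 and 258 in vehicle. It was 2.60 ± 0.07 log2 higher than vehicle (adjusted p = 5.42e-11), and with SB202190 it was also 0.36 ± 0.07 higher than with FGF2 alone (adjusted p = 0.0182). Dusp4, a nuclear phosphatase of the family, had 210.3 and 204 with SB202190 and 36.2 and 24.3 in vehicle, a log2 change of 2.88 ± 0.17. Dusp5 had 181 and 161 with SB202190 and 31.3 and 58.7 in vehicle, a log2 change of 2.07 ± 0.26. For Dusp7 the signals were 37.3 and 50.5 with SB202190 and 30.8 and 31.6 in vehicle. Its change of 0.63 ± 0.26 was not called (adjusted p = 0.0791). Leaving the trend out of the spread estimate gave a call for Dusp7, and so did averaging over the gene. Of its other probe sets, one changed by 1.97 and was called (adjusted p = 0.0136). Another changed by 0.46 and was not called (adjusted p = 0.431).

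The Sprouty and Spred genes, whose proteins block the pathway between the receptor and RAF, were all higher. Spry4 had 111 and 149.5 with SB202190 and 24.8 and 27.4 in vehicle, a log2 change of 2.40 ± 0.21. Spry1 changed by 1.06 ± 0.11 and Spry2 by 1.35 ± 0.10. Spred1 had 1258 and 1442 with SB202190, 1297 and 1289 with FGF2 alone and 476 and 518 in vehicle, a log2 change of 1.42 ± 0.10. Spred2 and Spred3 changed by 1.79 ± 0.07 and 1.22 ± 0.14. The largest adjusted p of the 6 genes was that of Spred3, 1.29e-05. With the mean of their probe sets Spry2 moved to 0.82 and Spred2 to 0.77.

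The ETS factors of the list were higher too. Etv5 had 991 and 1127 with SB202190, 879 and 983 with FGF2 alone and 373 and 359 in vehicle, a log2 change of 1.52 ± 0.08 (adjusted p = 1.69e-08). Elk3, another ETS factor, changed by 0.998 ± 0.10. Of other targets, Plaur, the urokinase receptor, had 107 and 130.1 with SB202190 and 32.7 and 25.7 in vehicle, a log2 change of 2.13 ± 0.18. Errfi1, an inhibitor of the EGF receptor, changed by 1.15 ± 0.09, Emp1, a membrane protein, by 1.11 ± 0.11 and Epha2, an ephrin receptor, by 0.94 ± 0.17. Mcl1, a survival protein of the BCL2 family, had 2122 and 2206 with SB202190 and 1511 and 1514 in vehicle, a smaller log2 change of 0.49 ± 0.06 (adjusted p = 1.57e-05). Myc changed by 0.39 ± 0.12 (adjusted p = 0.0235), a call lost without the second array with SB202190 or without either vehicle array. The lower members were Rgs4 and Ier2. Rgs4, which curbs G protein signalling, changed by -2.90 ± 0.56, or -1.82 with 16 added to the signals. Other probe sets of Rgs4 changed by -1.27 and -1.29 and were not called. Ier2 changed by -0.38 ± 0.14 (adjusted p = 0.0474), a call lost under several alternatives, among them without the first array with SB202190 or the second vehicle array.

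Genes of the immediate early class, which growth factors induce within a short time and which then fade, were split. Of 25 tested, 9 were higher and 10 lower, 36% and 40% beside 18.1% and 17.8% of all genes. The median change was -0.13, which median centring brought to 0.00, with 9 members higher and 6 lower. Fos, the AP-1 subunit, had 371 and 471 with SB202190, 627 and 627 with FGF2 alone and 1212 and 1317 in vehicle. Both arrays with SB202190 were the lowest of the 3 groups, with a log2 change of -1.61 ± 0.11 (adjusted p = 1.66e-07). Atf3, a stress-induced repressor, had 54.9 and 37.1 with SB202190, 12.7 and 34.02 with FGF2 alone and 154 and 174 in vehicle, and its log2 change was -1.77 ± 0.34. Jund, an AP-1 subunit of resting cells, changed by -0.75 ± 0.12, Btg2, an antiproliferative gene, by -0.66 ± 0.10 and Klf2, a zinc finger factor, by -1.26 ± 0.23.

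On the raised side, Egr3, a zinc finger factor, had 121 and 159.6 with SB202190, 63.8 and 47.6 with FGF2 alone and 38.6 and 31.2 in vehicle. Its log2 change was 2.09 ± 0.25 (adjusted p = 1.96e-05), or 1.06 with the mean of its probe sets. Ier3, a gene of cell survival, had 1668 and 1857 with SB202190, 735 and 791 with FGF2 alone and 443 and 506 in vehicle, a log2 change of 1.86 ± 0.08 (adjusted p = 2.22e-09). Egr1 had 725 and 826 with SB202190, 549 and 509.9 with FGF2 alone and 539.6 and 536 in vehicle, a log2 change of 0.49 ± 0.09 (adjusted p = 6.40e-04). For these 3 genes the arrays with SB202190 lay above those of both other groups. The small Maf factor Maff changed by 1.09 ± 0.13, Klf10 by 0.72 ± 0.13 and Jun by 0.41 ± 0.09, the last to 0.65 with median centring and not called without the intensity trend. Srf, the factor that binds the serum response element, had 155 and 131 with SB202190 and 159 and 138 in vehicle, a difference of -0.02 ± 0.15 that was not called.

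The genes of the p38 pathway itself, from the upstream kinases to the substrates, were divided. Of 31 tested, 8 were higher, 7 lower and 16 not called. These shares of 25.8% and 22.6% stand beside 18.1% and 17.8% of all genes, and the median change was 0.12. Among the targets of the inhibitor, Mapk14 had 346 and 324 with SB202190 and 249 and 264 in vehicle, a log2 change of 0.39 ± 0.11 (adjusted p = 0.0109). That call was lost without the first array with SB202190 or the first vehicle array, and the sign turned to -0.12 with the mean of the probe sets. Mapk11 had 38.4 and 30.2 with SB202190 and 25.2 and 19.6 in vehicle, a difference of 0.78 ± 0.33 that was not called (adjusted p = 0.08). Mapkapk2, the gene of MK2, had 157 and 158 with SB202190, 121 and 129 with FGF2 alone and 139 and 145 in vehicle, and its difference from vehicle of 0.18 ± 0.14 was not called (adjusted p = 0.343).

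Upstream of p38, the kinase gene Map2k3 had 339.7 and 293 with SB202190 and 166 and 176 in vehicle, a log2 change of 0.90 ± 0.11. Mapk13, which encodes p38δ, changed by 0.86 ± 0.16 and Mapkapk3, which encodes a kinase close to MK2, by 0.65 ± 0.11. Tab2, an adaptor of the kinase TAK1, was lower, with 1097 and 1139.5 in the samples with SB202190 and 2127 and 2249.5 in vehicle, a log2 change of -1.02 ± 0.06 (adjusted p = 4.31e-08). The Gadd45 genes, whose proteins respond to stress and bind MAP kinase kinase kinases, parted. Gadd45a had 1334 and 1387 with SB202190, 713 and 679 with FGF2 alone and 513 and 524 in vehicle, a log2 change of 1.36 ± 0.07 (adjusted p = 1.69e-08). Gadd45g had 262 and 235 with SB202190, 249 and 293 with FGF2 alone and 730.2 and 729 in vehicle, a log2 change of -1.58 ± 0.11 (adjusted p = 1.66e-07). Gadd45b moved the same way as Gadd45g, by -0.96 ± 0.14.

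MK2 and p38 also act on mRNA decay. Zfp36l1, which destabilizes AU-rich mRNAs, had 1285 and 1261 with SB202190, 1399 and 1369 with FGF2 alone and 2300.1 and 2218 in vehicle, a log2 change of -0.87 ± 0.07 (adjusted p = 4.30e-07). Its relative Zfp36 (tristetraprolin) changed by -0.83 ± 0.15. Dusp1, a phosphatase that inactivates p38, had 768 and 822 with SB202190, 654 and 615 with FGF2 alone and 510.5 and 524 in vehicle, a log2 change of 0.59 ± 0.07 (adjusted p = 2.61e-05). Of 28 mRNAs listed as stabilized through p38 and MK2, 18 were above the filter. Among these 8 were higher than vehicle and 5 lower, 44.4% and 27.8% beside 18.1% and 17.8% of all genes, with a median of 0.47. The count of lower members was 3 with the mean of the probe sets and without the first array with SB202190. Lif, a cytokine of the IL-6 family, had 69.1 and 70.9 with SB202190, 79.6 and 87.2 with FGF2 alone and 15.03 and 18.3 in vehicle, a log2 change of 2.16 ± 0.22. Vcam1, an adhesion molecule, had 1617 and 1564 with SB202190, 2181 and 2381 with FGF2 alone and 1664 and 1517 in vehicle. It was not called against vehicle (-0.04 ± 0.06, adjusted p = 0.722) and was lower with SB202190 than with FGF2 alone (log2 change -0.50 ± 0.06, adjusted p = 0.00179). Il6, Tnf, Cxcl2, Csf2 and Plau lay below the filter.

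**Figure D3:**
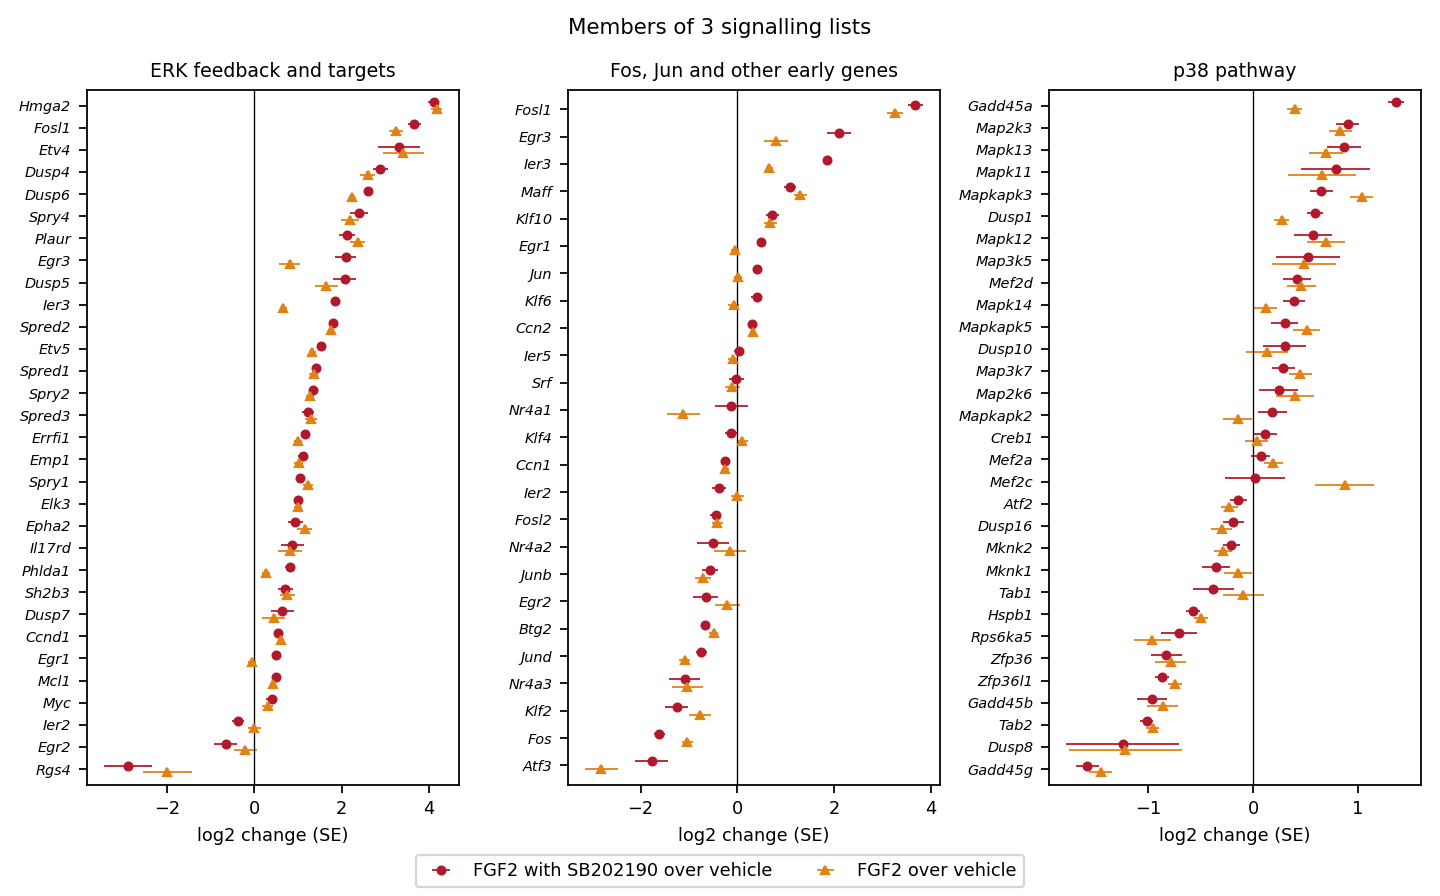
Log2 change and its SE of each tested member of the lists of ERK feedback and targets (31 genes), early genes (25) and the p38 pathway (31), sorted by FGF2 with SB202190 over vehicle (circles), with FGF2 over vehicle (triangles), which shares the vehicle arrays. Most circles of the first panel lie right of 0, and those of the other panels lie on both sides.

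The FGF receptor genes were lower or not called. Of 24 tested FGF ligands, receptors and coreceptors, 6 were lower and 3 higher, 25% and 12.5% beside 17.8% and 18.1% of all genes. The median of -0.16 turned to 0.03 with median centring. With median centring 7 were higher and 5 lower, and the higher members numbered 1 without the first array with SB202190 or the second vehicle array. Fgfr1 had 931 and 913 with SB202190 and 994 and 1003 in vehicle, a difference of -0.14 ± 0.07 that was not called. Fgfr3, the receptor gene known from astrocytes, had 323 and 366 with SB202190, 320.3 and 308 with FGF2 alone and 499.8 and 487 in vehicle, a log2 change of -0.52 ± 0.09 (adjusted p = 4.58e-04), or -0.31 with median centring. Fgfr2 changed by -0.69 ± 0.08, a call lost when its probe sets were averaged, and Fgfrl1, a receptor without a kinase, by -0.61 ± 0.07, or -0.35 with median centring. Fgfr4 was not called, and Gpc4, a heparan sulfate coreceptor, changed by -0.52 ± 0.06, or -0.27 with median centring. Fgf2 itself had 119 and 101 with SB202190, 179.9 and 134 with FGF2 alone and 86.7 and 88.4 in vehicle, and its difference from vehicle was not called (0.39 ± 0.19, adjusted p = 0.138).

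Most genes of DNA replication were higher than vehicle with SB202190. Of 36 tested, 27 were higher and 0 lower, 75% beside 18.1% of all genes, with a median of 0.67. With FGF2 alone 32 of them were higher than vehicle. Of 34 genes of mitosis and the spindle, 14 were higher and 0 lower with SB202190, with a median of 0.68, and 25 were higher with FGF2 alone. The mitosis count was 8 with the mean of the probe sets and 9 with a filter at the 60th percentile. The difference between FGF2 with SB202190 and FGF2 alone was called for 3 of the replication genes and 1 of the mitosis genes, all lower with SB202190.

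Cdt1, which loads the replicative helicase onto origins, had 459 and 488 with SB202190, 605 and 589 with FGF2 alone and 143 and 132 in vehicle. The 3 groups did not overlap, and the log2 change against vehicle was 1.78 ± 0.08 (adjusted p = 5.05e-09), or 1.12 with the mean of its probe sets. Mcm7, a helicase subunit, had 962 and 922 with SB202190, 1168 and 1229 with FGF2 alone and 529 and 494 in vehicle. It was 0.86 ± 0.07 above vehicle (adjusted p = 6.17e-07) and changed by -0.35 ± 0.07 against FGF2 alone (adjusted p = 0.0157). Rrm2, a subunit of ribonucleotide reductase, had 858 and 948 with SB202190, 1055 and 1071 with FGF2 alone and 380.3 and 368 in vehicle, a log2 change of 1.25 ± 0.08 (adjusted p = 4.95e-08). Dut, which keeps uracil out of DNA, changed by 1.42 ± 0.12. Rrm1, the other subunit of the reductase, had 462 and 426 with SB202190 and 492 and 441 in vehicle, a difference of -0.09 ± 0.09 that was not called.

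Among the cyclins and their regulators 13 of 25 were higher and 5 lower, 52% and 20%, with 2 lower under median centring. Ccne2, a cyclin of the entry into S phase, had 159 and 177 with SB202190, 209 and 196 with FGF2 alone and 71.8 and 61.5 in vehicle, a log2 change of 1.39 ± 0.18. E2f3, a transcription factor of S phase genes, changed by 0.97 ± 0.15. Ccnd1, cyclin D1, had 7020.1 and 6849 with SB202190, 7582 and 8348 with FGF2 alone and 4334 and 4462 in vehicle, a log2 change of 0.53 ± 0.04 (adjusted p = 7.09e-07), or 0.86 with median centring. The inhibitor gene Cdkn1b was not called, with 705 and 802 in the samples with SB202190 and 755 and 681 in vehicle. Of the mitosis genes, Bub1, a checkpoint kinase, had 65.8 and 79.9 with SB202190, 108 and 84.1 with FGF2 alone and 27.95 and 22.1 in vehicle, a log2 change of 1.66 ± 0.25. Ccna2, cyclin A2, changed by 1.03 ± 0.16, Mad2l1, a checkpoint protein, by 0.76 ± 0.12 and Cdk1, the mitotic kinase, by 0.62 ± 0.10. Nuf2, a kinetochore protein, had 148 and 153 with SB202190 and 159 and 152 in vehicle, a difference of -0.01 ± 0.13 that was not called.

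The promoters of these lists were searched for the motifs known from them, over 250 bases before to 50 bases after each start in RefSeq's promoters (GRCm38.p6), on both strands. The E2F motif TTTNNCGC was in 13 of the 30 replication genes with a promoter, against 9.63% of tested genes and 5.17% of all 32851 promoters. The cell cycle homology region TTTGAA was in 22 of 29 mitosis genes, against 14.3% of tested genes and 17.9% of all promoters. A match describes the letters and is no evidence that a factor binds there. The 2 promoters shown are those of the called member with the smallest p that holds each motif, so that the letters can be seen beside the values. Cdt1 lies at chr8:122567765-122568064 on the + strand, and its match begins 33 bases after the start. Anln, an actin-binding protein of cell division, lies at chr9:22389157-22389456 on the - strand with matches 22 and 29 bases after the start. Anln had 217 and 198 with SB202190 and 123 and 102 in vehicle, a log2 change of 0.91 ± 0.12 (adjusted p = 6.32e-05) that fell to 0.34 and was not called when its probe sets were averaged. Capitals mark the motif.
Cdt1: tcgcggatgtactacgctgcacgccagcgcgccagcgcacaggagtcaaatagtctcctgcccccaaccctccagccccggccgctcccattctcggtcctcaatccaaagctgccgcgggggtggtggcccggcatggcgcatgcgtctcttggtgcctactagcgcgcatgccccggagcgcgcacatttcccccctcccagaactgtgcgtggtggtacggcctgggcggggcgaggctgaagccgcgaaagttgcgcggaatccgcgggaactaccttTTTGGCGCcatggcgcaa
Anln: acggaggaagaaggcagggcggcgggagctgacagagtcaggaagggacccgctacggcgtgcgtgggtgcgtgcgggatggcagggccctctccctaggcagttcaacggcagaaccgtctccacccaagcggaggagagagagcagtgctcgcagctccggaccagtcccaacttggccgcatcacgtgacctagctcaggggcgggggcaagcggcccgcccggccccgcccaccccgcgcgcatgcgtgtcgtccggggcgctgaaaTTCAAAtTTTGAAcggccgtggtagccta

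Most genes of ribosome biogenesis were higher. Of 34 tested genes, 28 were higher and 0 lower, 82.4% of the list, with changes of 0.07 to 1.02 and a median of 0.62. Fbl, the methyltransferase fibrillarin of the nucleolus, had 749 and 736 with SB202190, 939 and 925 with FGF2 alone and 359 and 360.4 in vehicle, a log2 change of 1.02 ± 0.09 (adjusted p = 1.10e-06). Dkc1, a pseudouridine synthase, had 346 and 337 with SB202190 and 189 and 174 in vehicle, a log2 change of 0.93 ± 0.09. Tsr1, which matures the small subunit, changed by 0.91 ± 0.09, and Npm1, the nucleolar chaperone nucleophosmin, by 0.56 ± 0.05, or 0.85 with median centring. Polr1c, a subunit of RNA polymerases I and III, had 448 and 402 with SB202190 and 405 and 363 in vehicle and was not called.

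Genes of amino acid supply and of the unfolded protein response were higher in 22 of 38 cases and lower in 8, 57.9% and 21.1%, with a median of 0.31 and 5 lower under median centring. The leading members make or import amino acids. Asns, asparagine synthetase, had 1733 and 1417 with SB202190, 2016 and 1854 with FGF2 alone and 397 and 360.3 in vehicle, a log2 change of 2.02 ± 0.09 (adjusted p = 2.22e-09). Slc7a5, the large neutral amino acid transporter, had 442 and 397 with SB202190 and 119 and 116 in vehicle, a log2 change of 1.85 ± 0.09. Psph and Phgdh, enzymes of serine synthesis, changed by 1.71 ± 0.07 and 1.25 ± 0.07. The stress factor gene Xbp1 and the chaperone gene Calr of the endoplasmic reticulum were not called, with changes of 0.16 ± 0.06 and 0.08 ± 0.06.

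Among the oxidative defence genes that NRF2 controls, higher members outnumbered lower ones against both vehicle and FGF2 alone. Against vehicle 14 of 26 were higher and 5 lower, 53.8% and 19.2%, with a median of 0.34 and 0 lower under median centring. Against FGF2 alone 10 were higher and 0 lower, where 1.32% of all genes were higher. That count was not run under the alternatives, and without the intensity trend limma called 0 of all genes against FGF2 alone. Hmox1, the heme-degrading enzyme, had 2547 and 2516 with SB202190, 1409.7 and 1396 with FGF2 alone and 832 and 799 in vehicle. The groups were fully apart, by 1.58 ± 0.06 log2 from vehicle (adjusted p = 5.83e-10) and 0.83 ± 0.06 from FGF2 alone (adjusted p = 8.20e-06). Srxn1, which repairs oxidized peroxiredoxins, had 1751 and 1642 with SB202190, 1157 and 1137 with FGF2 alone and 633 and 622 in vehicle, 1.38 ± 0.06 log2 from vehicle (adjusted p = 2.22e-09). Txnrd1, thioredoxin reductase, had 3006 and 3036 with SB202190, 2309 and 2167 with FGF2 alone and 1492 and 1441 in vehicle, 1.01 ± 0.05 log2 from vehicle (adjusted p = 1.39e-08). Taldo1, an enzyme of the pentose phosphate pathway, stood 0.92 ± 0.06 above vehicle and 0.44 ± 0.06 above FGF2 alone. Fth1, the ferritin heavy chain, was not called (-0.06 ± 0.06, adjusted p = 0.524).

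The antioxidant response element TGACNNNGC was in 8 of the 21 NRF2 target genes with a promoter, against 16.7% of tested genes and 12.4% of all promoters. The promoter of Srxn1, the called member with the smallest p that holds it, lies at chr2:152105274-152105573 on the + strand, and the match, in capitals, begins 29 bases after the start.
Srxn1: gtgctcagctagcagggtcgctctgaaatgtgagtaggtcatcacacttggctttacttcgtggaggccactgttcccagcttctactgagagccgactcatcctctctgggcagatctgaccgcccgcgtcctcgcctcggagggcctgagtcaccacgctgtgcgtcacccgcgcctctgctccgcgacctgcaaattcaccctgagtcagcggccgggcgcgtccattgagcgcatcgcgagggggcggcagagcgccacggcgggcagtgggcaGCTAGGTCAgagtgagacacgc

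Of the genes of cholesterol and fatty acid synthesis 12 of 27 were higher than vehicle and 4 lower, 44.4% and 14.8%, with a median of 0.19. The lower members numbered 1 under median centring and 2 without the first array with SB202190. Against FGF2 alone 6 were higher and 0 lower, where 1.32% of all genes were higher, a count not run under the alternatives. Insig1, which holds back the factor SREBP, had 678 and 774 with SB202190, 509 and 509 with FGF2 alone and 366 and 354 in vehicle, a log2 change of 0.98 ± 0.08 (adjusted p = 1.10e-06). Idi1, an isomerase of the sterol pathway, changed by 0.58 ± 0.08. Fads2, a fatty acid desaturase, was lower, with 1014 and 909 in the samples with SB202190 and 1387 and 1417 in vehicle, a change of -0.56 ± 0.07, or -0.34 with median centring. Sqle, squalene epoxidase, was not called (-0.05 ± 0.06).

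Most genes of the mature astrocyte were lower than vehicle with SB202190. Of 35 tested, 28 were lower and 2 higher, 80% beside 17.8% of all genes, with a median of -0.77. With FGF2 alone 28 were lower. The summed signal was 53994 and 52909 with SB202190, 55895 and 59332 with FGF2 alone and 80311 and 78900.3 in vehicle. In RNA of a whole sample fewer cells of a type and less RNA per cell cannot be told apart. Aqp4, the water channel of astrocyte endfeet, had 1255 and 1305 with SB202190, 1592 and 1523 with FGF2 alone and 5502 and 5179 in vehicle. Both arrays with SB202190 were the lowest of the 3 groups, with log2 changes of -2.20 ± 0.06 against vehicle (adjusted p = 2.67e-11) and -0.28 ± 0.06 against FGF2 alone (adjusted p = 0.0176). Gja1, the gap junction protein connexin 43, had 2177 and 2135 with SB202190, 2123 and 2146 with FGF2 alone and 4574 and 4709 in vehicle, a log2 change of -1.25 ± 0.06 (adjusted p = 3.07e-09). Kcnj10, the inward rectifier channel Kir4.1, had 284 and 257 with SB202190 and 788 and 865 in vehicle, a log2 change of -1.62 ± 0.12.

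The defining markers were lower as well. Gfap, whose signals stand above, changed by -0.89 ± 0.06 (adjusted p = 5.46e-08), or -0.58 with median centring, and by -0.24 ± 0.06 against FGF2 alone. Slc1a3 changed by -0.34 ± 0.06 and Slc1a2, the other glutamate transporter of astrocytes, by -0.82 ± 0.10. Aldh1l1, an enzyme of folate metabolism, changed by -0.80 ± 0.10 and S100b, a calcium-binding protein, by -0.77 ± 0.22. Fabp7, a lipid carrier of radial glia, had 2609.9 and 2785 with SB202190 and 2252 and 2308 in vehicle and was not called (0.17 ± 0.06, adjusted p = 0.0571). Of the genes for glutamate, glycogen and lactate 13 of 22 were lower and 3 higher, 59.1% and 13.6% beside 17.8% and 18.1% of all genes, with a median of -0.47. Ppp1r3c, which targets glycogen synthase to phosphatase, had 398 and 338 with SB202190 and 1320.2 and 1194 in vehicle, a log2 change of -1.78 ± 0.09. Slc16a1, a lactate transporter, had 1818 and 1623 with SB202190 and 3967 and 4043 in vehicle, a log2 change of -1.35 ± 0.08. Slc38a3, a glutamine transporter, had 409 and 405 with SB202190, 640.4 and 589.9 with FGF2 alone and 1022 and 826 in vehicle, -1.19 ± 0.09 from vehicle and -0.59 ± 0.09 from FGF2 alone. Of the channels, pumps and gap junction genes 12 of 19 were lower and 3 higher, 63.2% and 15.8%, with a median of -0.77.

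Genes known from reactive astrocytes divided into both directions, with a median of -0.47. Of 32 tested, 10 were higher and 18 lower, 31.2% and 56.2% beside 18.1% and 17.8% of all genes. Clcf1, a cytokine of the IL-6 family, had 1126 and 1349 with SB202190, 1047 and 988 with FGF2 alone and 181 and 163 in vehicle, a log2 change of 2.84 ± 0.11 (adjusted p = 1.39e-09). Timp1, an inhibitor of metalloproteinases, had 3507 and 3073 with SB202190 and 936 and 1041 in vehicle, a log2 change of 1.66 ± 0.08. Cd44, a receptor for hyaluronan, changed by 1.03 ± 0.06. S1pr3, a receptor for sphingosine 1-phosphate, was lower, with 1915 and 1824 in the samples with SB202190, 2403 and 2258 with FGF2 alone and 4976 and 5309 in vehicle, a log2 change of -1.63 ± 0.05 (adjusted p = 2.56e-10). Vim, vimentin, had 11938 and 12048 with SB202190 and 12011 and 12375 in vehicle and was not called.

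Secreted growth factors and cytokines were higher in 13 of 38 cases and lower in 11, 34.2% and 28.9%, or 15 higher and 7 lower with median centring. Hbegf, a ligand of the EGF receptor, had 3299 and 3389 with SB202190, 3259 and 3436 with FGF2 alone and 923 and 919.7 in vehicle, a log2 change of 1.80 ± 0.05 (adjusted p = 5.05e-11). Igf1, insulin-like growth factor 1, had 61.3 and 56.6 with SB202190, 102 and 96.9 with FGF2 alone and 339.6 and 311 in vehicle. It was lowest with SB202190, -2.41 ± 0.14 from vehicle (adjusted p = 3.29e-08) and -0.73 ± 0.14 from FGF2 alone (adjusted p = 0.0146). Angpt1, a ligand of the endothelial receptor TIE2, had 138 and 132 with SB202190 and 511 and 521 in vehicle, a log2 change of -1.92 ± 0.12.

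Among the targets of BMP and TGF-beta signalling, lower members outnumbered higher ones against both vehicle and FGF2 alone. Against vehicle 12 of 23 were lower and 2 higher, 52.2% and 8.7%, with a median of -0.29. Median centring left 4 higher and 5 lower, which all but removed the excess of lower genes against vehicle, and turned the median to 0.01. Against FGF2 alone 8 were lower and 0 higher, where 1.7% of all genes were lower, a count not run under the alternatives. Id3, an inhibitor of basic helix-loop-helix factors that BMP induces, had 1142 and 1112 with SB202190, 1689.7 and 1663 with FGF2 alone and 2010.1 and 2171 in vehicle. It was lowest with SB202190, -0.93 ± 0.06 from vehicle (adjusted p = 7.00e-08) and -0.57 ± 0.06 from FGF2 alone (adjusted p = 3.26e-04). Id4, of the same family, had 1351 and 1348 with SB202190, 1801 and 1774 with FGF2 alone and 3235 and 3145 in vehicle, -1.32 ± 0.06 from vehicle (adjusted p = 2.54e-09). Id1 had 881 and 920.1 with SB202190, 1185 and 1246 with FGF2 alone and 839.9 and 827 in vehicle, and was not called against vehicle (0.09 ± 0.06) but was lower than with FGF2 alone (-0.43 ± 0.06, adjusted p = 0.00343). Hey1, a target shared with the Notch pathway, changed by -0.87 ± 0.10 from vehicle and -0.50 ± 0.10 from FGF2 alone. Tgif1, a repressor of SMAD activity, was higher than vehicle, with 624 and 664 in the samples with SB202190 and 248 and 244 in vehicle, a change of 1.38 ± 0.08.

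Transcription factors of neural progenitors and glia had 8 of 33 members higher and 11 lower, 24.2% and 33.3%, but 11 higher and 7 lower under median centring, so that the balance turned. Olig2, a factor of the oligodendrocyte lineage and of cortical progenitors, had 973 and 1015 with SB202190, 874 and 941 with FGF2 alone and 239 and 259 in vehicle, a log2 change of 1.99 ± 0.08 (adjusted p = 9.15e-10). Olig1 had 2673 and 2492 with SB202190, 3166 and 3257 with FGF2 alone and 1626 and 1641 in vehicle, 0.61 ± 0.06 above vehicle and -0.30 ± 0.06 against FGF2 alone. Of the Notch pathway 4 of 21 genes were higher and 5 lower, close to the shares of all genes, and the median of -0.17 turned to 0.02 with median centring. Hes1, a repressor that Notch induces, had 241 and 259.6 with SB202190, 321 and 322 with FGF2 alone and 111 and 117 in vehicle, a log2 change of 1.16 ± 0.11, and Jag1, a Notch ligand, changed by 1.01 ± 0.10. Of Eph receptors and ephrins 4 of 16 were higher and 1 lower, 25% and 6.25% beside 18.1% and 17.8% of all genes. With the mean of the probe sets 2 were higher. Fewer were also higher when the first array with SB202190 or the second vehicle array was left out. Efnb2, ephrin B2, changed by 0.69 ± 0.09, or 0.46 with the mean of its probe sets.

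Plasminogen activators, proteases and serpins were more often lower, 14 of 25 against 5 higher, with a median of -0.47. These are 56% and 20%, beside 17.8% and 18.1% of all genes. Plat, tissue plasminogen activator, had 4142 and 4547 with SB202190, 3083 and 3259 with FGF2 alone and 1987 and 1827 in vehicle. It was 1.12 ± 0.06 above vehicle (adjusted p = 1.85e-08) and 0.46 ± 0.06 above FGF2 alone (adjusted p = 0.00194), the last a call lost when its probe sets were averaged. Mmp3, stromelysin, had 1234 and 1338 with SB202190, 936 and 1025 with FGF2 alone and 519.9 and 537 in vehicle, a log2 change of 1.25 ± 0.07 (adjusted p = 3.58e-08). Timp3, an inhibitor bound to the matrix, had 1298 and 1446 with SB202190, 2091 and 2288 with FGF2 alone and 3143 and 3356 in vehicle, -1.33 ± 0.07 from vehicle (adjusted p = 7.84e-09) and -0.65 ± 0.07 from FGF2 alone (adjusted p = 2.55e-04).

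Collagens and matrix proteins were lower in 23 of 36 cases and higher in 4, 63.9% and 11.1%, with a median of -0.44. Median centring left 15 lower and 7 higher. Ogn, the leucine-rich proteoglycan osteoglycin, had 631 and 533 with SB202190, 734 and 659.7 with FGF2 alone and 1977 and 1961 in vehicle, a log2 change of -1.81 ± 0.08 (adjusted p = 4.23e-09). Fmod and Dcn, which bind collagen fibrils, changed by -1.34 ± 0.07 and -1.01 ± 0.07, and the collagen gene Col1a2 by -1.22 ± 0.08. Tnc, the matrix protein tenascin C, went the other way, with 1809 and 1698 in the samples with SB202190, 1818 and 1923 with FGF2 alone and 559 and 534 in vehicle, a log2 change of 1.63 ± 0.10 (adjusted p = 3.38e-08). Of the SRF, actin and YAP targets 9 of 28 were higher and 10 lower, 32.1% and 35.7% beside 18.1% and 17.8% of all genes. With median centring 11 were higher and 5 lower, and the median of -0.01 turned to 0.18. Cnn1, the contractile protein calponin, had 440.2 and 376 with SB202190, 504 and 551 with FGF2 alone and 1228 and 1162 in vehicle, a log2 change of -1.57 ± 0.08, while Actb and Actg1, the cytoplasmic actins, were not called.

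Most interferon-stimulated genes were lower with SB202190. Of 31 tested, 24 were lower and 7 not called, 77.4% lower beside 17.8% of all genes, with a median of -0.75. With FGF2 alone 23 were lower, and no member was called between FGF2 with SB202190 and FGF2 alone by limma. Ifit3, which binds foreign RNA together with Ifit1, had 597 and 722 with SB202190, 799 and 764 with FGF2 alone and 2256 and 2600.3 in vehicle, a log2 change of -1.93 ± 0.12 (adjusted p = 4.44e-08). Ifit1 had 193 and 213 with SB202190, 270.2 and 249 with FGF2 alone and 619 and 745 in vehicle, a log2 change of -1.76 ± 0.11 (adjusted p = 6.73e-08). The guanylate-binding protein gene Gbp2 changed by -1.54 ± 0.11 and the immunity GTPase gene Iigp1 by -1.73 ± 0.19. Of the genes of MHC class I and complement 12 of 20 (60%) were lower and 0 higher, with a median of -0.52. H2-K1, a class I heavy chain, had 2046 and 2009 with SB202190 and 2727 and 2815 in vehicle, a log2 change of -0.52 ± 0.05, or -0.24 with median centring. Probe sets of class I genes can take up RNA of near-identical relatives. Serping1, the inhibitor of complement C1, changed by -0.91 ± 0.07.

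The interferon response element GAAANNGAA was in 15 of the 25 interferon-stimulated genes with a promoter, against 8.27% of tested genes and 8.56% of all promoters. The promoter of Ifit3, the called member with the smallest p that holds it, lies at chr19:34583279-34583578 on the + strand. Its 3 matches, in capitals, begin 155, 121 and 102 bases before the start.
Ifit3: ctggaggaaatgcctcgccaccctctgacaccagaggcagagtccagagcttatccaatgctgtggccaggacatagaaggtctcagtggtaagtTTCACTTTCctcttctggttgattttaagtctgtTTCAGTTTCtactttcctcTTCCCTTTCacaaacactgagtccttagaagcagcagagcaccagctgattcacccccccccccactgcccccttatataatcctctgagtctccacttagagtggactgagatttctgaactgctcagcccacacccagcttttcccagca

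The promoters of the early genes and of the ERK targets were the only others searched for motifs. The AP-1 site TGANTCA was in 0 of 19 early genes with a promoter (6.42% of tested genes) and the serum response element core CCATATTNG likewise in 0 of 19 (0.603%). The ETS core ACCGGAA was in 1 of 21 ERK targets, Egr2 (7.63%). These counts say only that the letters are not in these windows of 300 bases.

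Lower genes outnumbered higher ones in the lists of lipid export and of lysosomes and autophagy, and for lysosomes this turned with median centring. Of the lipid export genes 8 of 19 were lower and 0 higher, and of the lysosome and autophagy genes 12 of 30 were lower and 1 higher. These are 42.1% and 40% lower, beside 17.8% of all genes. With median centring 3 lipid export genes were higher and 6 lower, 5 lysosome genes were higher and 3 lower, and the medians of -0.18 and -0.13 turned to 0.02 and 0.11. Apod, apolipoprotein D, had 1199.6 and 1055 with SB202190, 1213 and 1492 with FGF2 alone and 2634 and 2947 in vehicle, a log2 change of -1.35 ± 0.09 (adjusted p = 7.01e-08). Lpl, lipoprotein lipase, changed by -1.52 ± 0.12. Of the p53 and growth arrest genes 6 of 26 were higher and 8 lower, 23.1% and 30.8% beside 18.1% and 17.8% of all genes. The higher members numbered 3 with the mean of the probe sets. With median centring 10 were higher and 6 lower, and the median of -0.11 turned to 0.19. Fas, a death receptor, had 364 and 349 with SB202190 and 957 and 916 in vehicle, a log2 change of -1.40 ± 0.09.

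**Figure D4:**
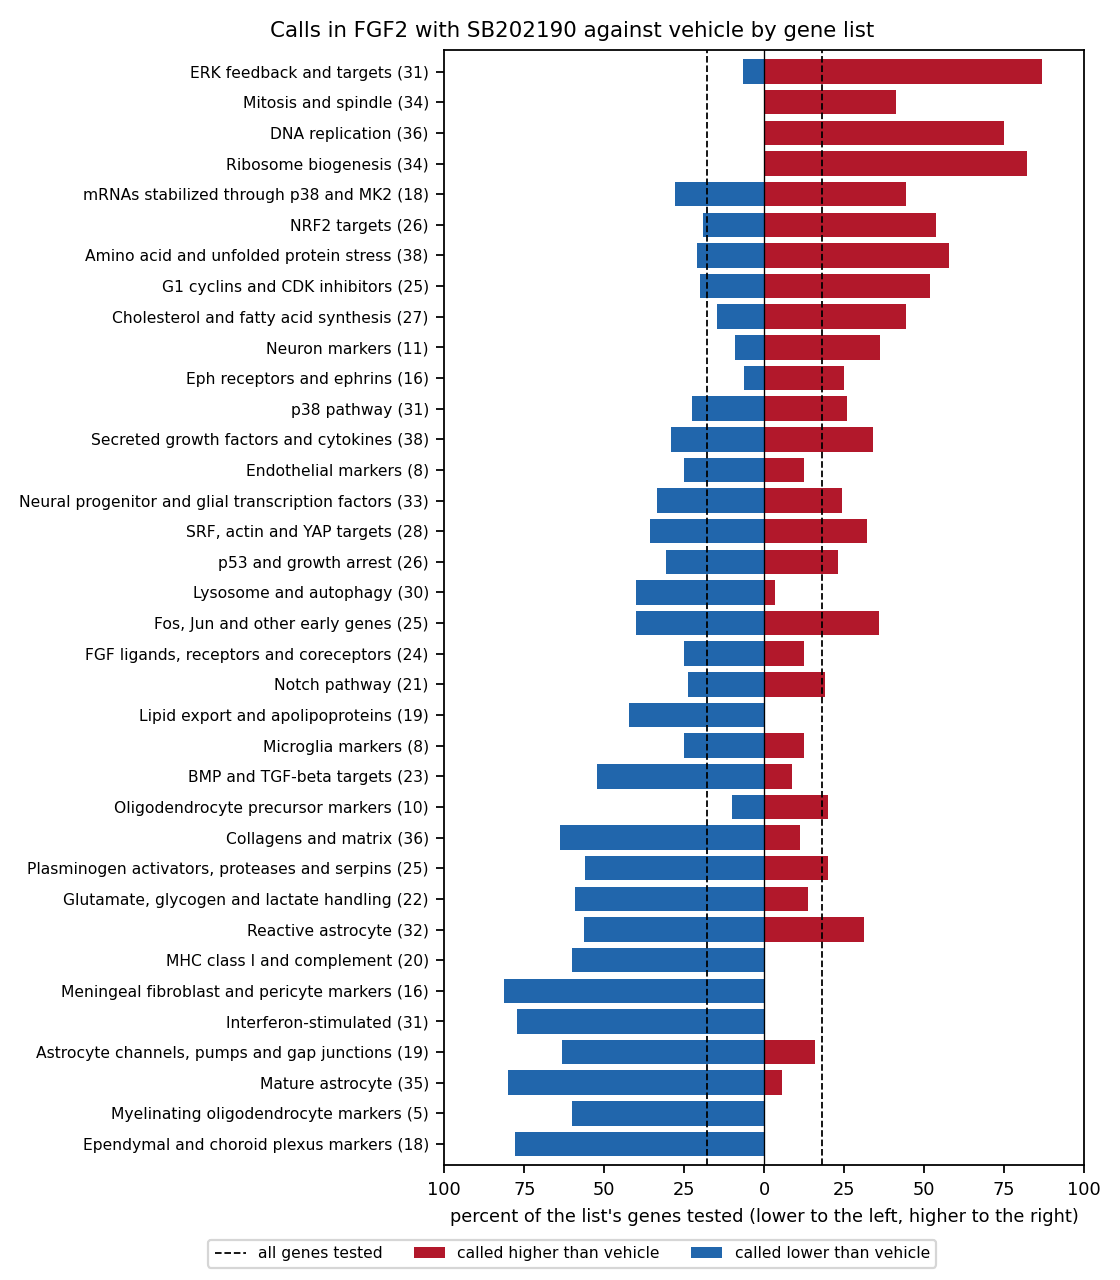
Percent of each list's tested genes (number in brackets) called higher than vehicle with FGF2 and SB202190 (red, to the right) and lower (blue, to the left), sorted by the median log2 change of the list, with dashed lines at 18.1% and 17.8% of all genes. ERK targets, replication and ribosome biogenesis reach far to the right, and ependymal, astrocyte and interferon genes far to the left.

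Markers of other cell types that a cortical sample could hold were measured as well, and their part in the results was not tested. Each sum below is over the tested markers of a list, and each count stands beside 18.1% of all genes higher and 17.8% lower. Of 20 ependymal and choroid plexus markers with a probe set, 18 were tested, and 14 (77.8%) were lower with SB202190 and 0 higher. Their summed signal was 4323 and 5053 with SB202190, 5341 and 4401 with FGF2 alone and 8647 and 8924 in vehicle. Foxj1, the master factor of motile cilia, had 217 and 224 with SB202190, 380.3 and 337 with FGF2 alone and 789 and 802 in vehicle. It was lowest with SB202190, -1.87 ± 0.09 from vehicle (adjusted p = 4.37e-09) and -0.70 ± 0.09 from FGF2 alone (adjusted p = 0.00145). Dynlrb2, a dynein light chain of cilia, changed by -2.25 ± 0.10, whereas Ttr, the transthyretin of choroid plexus, had 2387 and 3095 with SB202190 and 2533 and 2620.4 in vehicle and was not called.

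Of the meningeal fibroblast and pericyte markers 13 of 16 tested (81.2%) were lower and 0 higher, a list that shares several collagen and matrix genes with the one above. Their summed signal was 20991 and 18669 with SB202190, against 29704 and 28834 in vehicle. Col1a1 had 273 and 200.5 with SB202190 and 743 and 664 in vehicle, a log2 change of -1.61 ± 0.13. Of 14 endothelial markers 8 were tested, with 1 higher (12.5%) and 2 lower (25%). Cdh5 and Eng were among those tested, while Pecam1, Cldn5, Tek and Tie1 lay below the filter. The endothelial sum of 579.7 and 568 with SB202190, against 1962 and 1827 in vehicle, was mostly that of Slco1a4, an anion transporter. Slco1a4 had 306 and 311 with SB202190 and 1666 and 1532 in vehicle, a log2 change of -2.38 ± 0.09.

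Several defining markers of microglia, neurons and oligodendrocytes lay below the filter, while others were above it. Those tested included Csf1r and C1qb of microglia, Map2 and Stmn2 of neurons, and Mbp and Cnp of myelinating oligodendrocytes. Of 17 microglia markers with a probe set 8 were tested, and these 8 summed to 444 and 415 with SB202190, against 503 and 625 in vehicle. Of the 8 tested, 1 was higher (12.5%) and 2 were lower (25%), and Aif1, Itgam, Cx3cr1, P2ry12 and Ptprc lay below the filter. Neuron markers summed to 3037 and 2988 with SB202190, against 2596 and 2566 in vehicle. Of 11 tested, 4 were higher (36.4%) and 1 was lower (9.09%), and Rbfox3, Snap25 and Slc17a7 lay below the filter. Oligodendrocyte precursor markers summed to 3941 and 3858 with SB202190, against 2283 and 2365 in vehicle. That sum was mostly of Olig1 and Olig2, whose signals stand above, and the median log2 change of the list was -0.34. Of 10 tested, 2, Olig1 and Olig2, were higher (20%) and 1 was lower (10%). Pdgfra, the receptor that defines these precursors, had 107 and 138 with SB202190 and 141 and 120.3 in vehicle and was not called (-0.06 ± 0.16). Of 5 myelinating oligodendrocyte markers tested 3 (60%) were lower and 0 higher, and Mog, Mag and Mobp lay below the filter. Their sum was 2479 and 2236 with SB202190, against 2658 and 2798 in vehicle.

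The genes that set FGF2 with SB202190 apart from FGF2 alone were few and mostly small in change. Of the 398 called, 5 were at least 2-fold higher and 9 at least 2-fold lower, and the median absolute difference over all genes was 0.15.

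Of the genes that kept the call without each array, Nwd1 and Nupr1, like Vcam1 above, lay nearer to vehicle than to FGF2 alone when SB202190 was present. Nwd1, a protein with NACHT and WD repeats, had 59.7 and 44.2 with SB202190, 11.9 and 9.42 with FGF2 alone and 67.1 and 88.4 in vehicle. With SB202190 it was 2.10 ± 0.28 log2 above FGF2 alone (adjusted p = 0.00197), or 1.35 with 16 added to the signals, and was not called against vehicle (-0.48 ± 0.28, adjusted p = 0.215). Nupr1, a stress-induced chromatin protein, had 849.8 and 717 with SB202190, 2365 and 2186 with FGF2 alone and 608 and 593 in vehicle. It changed by -1.51 ± 0.09 against FGF2 alone (adjusted p = 3.07e-06) and by 0.34 ± 0.09 against vehicle (adjusted p = 0.00729), a call lost without the first array with SB202190. Tgfbi, a matrix protein that TGF-beta induces, had 203 and 235 with SB202190, 485 and 476 with FGF2 alone and 473 and 413 in vehicle, with both arrays of SB202190 the lowest. Its change was -1.13 ± 0.11 against FGF2 alone (adjusted p = 2.08e-04), a call lost at -0.78 without probe sets that can take up several transcripts, and -1.02 ± 0.11 against vehicle (adjusted p = 9.58e-06). Ier3, by contrast, stood highest with SB202190, 1.20 ± 0.08 above FGF2 alone (adjusted p = 8.20e-06), and Gadd45a likewise, 0.97 ± 0.07 above FGF2 alone (adjusted p = 2.30e-05).

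The remaining genes furthest apart did not keep the call when single arrays were left out. Xdh, xanthine dehydrogenase, had 26.6 and 22.8 with SB202190, 1.02 and 7.83 with FGF2 alone and 18.3 and 16.9 in vehicle, 2.39 ± 0.57 above FGF2 alone (adjusted p = 0.0399). Gsdma2, a gasdermin, had 20.7 and 25.95 with SB202190, 5.06 and 3.88 with FGF2 alone and 27.6 and 23.95 in vehicle, 2.04 ± 0.46 above FGF2 alone (adjusted p = 0.0315). With 16 added to the signals Xdh moved to 1.04 and Gsdma2 to 0.97, and Xdh to 1.49 without the first FGF2 array. Both had signals near or below the median of an array. Lmcd1, a LIM protein, had 57.4 and 66.5 with SB202190, 164 and 175 with FGF2 alone and 41.6 and 43.2 in vehicle, a difference of -1.42 ± 0.29 from FGF2 alone. Serpinb1a, an inhibitor of neutrophil proteases, differed from FGF2 alone by -1.30 ± 0.22, Ces5a, a carboxylesterase, by -1.33 ± 0.25, Egr3 by 1.29 ± 0.25 and Tubb4a, a beta-tubulin, by 0.997 ± 0.17. Averaged over their probe sets, the differences were -0.66 for Serpinb1a, -0.48 for Ces5a and 0.51 for Egr3. Unc13b, a vesicle priming factor, differed by -1.34 ± 0.26, which turned to 0.30 with the mean of its probe sets.

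**Figure D5:**
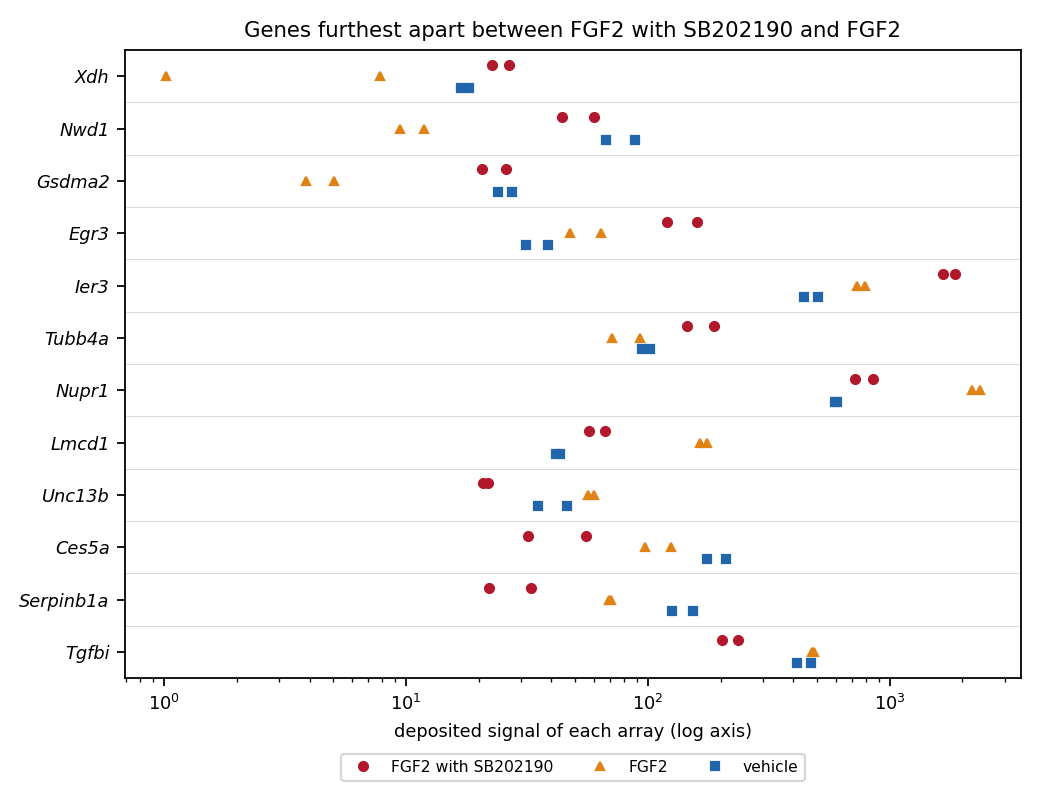
Deposited signal of each array, on a log axis, for the 6 highest (top) and 6 lowest called genes of FGF2 with SB202190 against FGF2; circles are FGF2 with SB202190, triangles FGF2 and squares vehicle, 2 arrays each. Circles and triangles do not overlap in any of the 12 genes because the choice of genes required it. For genes such as Nwd1, Gsdma2, Xdh, Lmcd1 and Nupr1 the circles lie nearer to the squares than the triangles do.

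Across the lists, where 1.32% of all genes tested were higher and 1.7% lower, the difference between FGF2 with SB202190 and FGF2 alone was called for 5 of 31 ERK targets, all higher, and for 5 higher and 1 lower of 25 early genes. Among proteases 2 were higher and 5 lower, among mature astrocyte genes 5 were lower and 0 higher, and among progenitor and glial factors 1 was higher and 5 lower. No member of the lists of ribosome biogenesis, G1 cyclins, interferon-stimulated genes or MHC class I was called by limma in that comparison. Lists with shared members do not give separate results. Egr1, Egr3 and Ier3 are counted among both the ERK targets and the early genes. Id1, Id2, Id3, Id4 and Hey1 are on both the list of progenitor and glial factors and that of BMP and TGF-beta targets. The list counts against FGF2 alone were not run under the alternatives.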

How the data were processed

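The 8 arrays of mouse RNA, 2 in each of 4 groups, were used as deposited: a table of deposited probe set intensities on a linear scale, with an equal trimmed mean on each array (how the authors made them is not given in the sources used here). Probe sets were named by the platform's annotation, under which 34958 had 1 gene symbol, 932 several and 9211 none, and 64 control probe sets were left out. The intensities plus 1.77, their 10th percentile, were taken to log2 and quantile-normalized. The brightest of a gene's probe sets stood for the gene, and genes with a mean above the 40th percentile (log2 3.83) were tested, 13173 of 18193. limma 3.58.1 in R 4.3.3 was fitted to all 8 arrays with an intensity trend, two-sided, with Benjamini-Hochberg adjustment over all genes tested. The routine was tested on simulated data. Python 3.11.15 and matplotlib 3.10.9 drew the figures. No depth applies to arrays, and the 2 arrays a group limit the precision.

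The text names the 12 called genes at each end of the fold changes against vehicle, groups not overlapping, the 6 highest and 6 lowest against FGF2, up to 5 called members of each list with the smallest p and up to 2 not called with the highest mean, and any member of the ERK, early and p38 lists. Slc1a3, Slc1a2, Aldh1l1 and S100b were named beside these as defining markers. The comparison, the lists and these tests were chosen with earlier results of these data known. Alternatives covered normalization, pseudocount, filter, probe set choice, variance model, each array left out and a block for replicate number. Same-numbered samples deviated together at correlations of -0.026 to 0.034, so the numbers were not taken as pairs. Sequences are RefSeq's (GRCm38.p6), and 614 of 776 tested list genes had a promoter.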

Additional observations from a re-analysis of the deposited data

How the results depend on the processing

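Against vehicle, the count of 4723 called genes was 3306 to 5494 over the alternatives run on genes and 3671 to 3840 with single arrays left out. With all probe sets tested it was 7839, 4182 higher and 3657 lower, of which 745 and 1011 were at least 2-fold, and FGF2 against vehicle then had 8242. Median centring gave 4058 higher and 1436 lower genes, and 16 added to the signals gave 251 genes at least 2-fold higher. The cause of the shift under median centring was not tested. FGF2 with SB202190 against FGF2 depended most on the settings. Its 398 calls became 0 without the intensity trend (0 higher, 0 lower), 235 with median centring (111 lower), 170 with the mean of probe sets (77 higher, 93 lower) and 116 at an adjusted p under 0.01 (49 and 67). All probe sets gave 263 higher, and single arrays left out gave 82 to 306 calls, 39 to 160 higher and 38 to 146 lower.

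Among the list counts, median centring left 6 early genes, 7 progenitor factors, 7 secreted factors, 5 BMP and TGF-beta targets, 15 collagens, 5 SRF targets and 3 lysosome genes lower. Without the intensity trend 7 progenitor factors, 7 BMP targets and 6 SRF targets were lower. The mean of probe sets left 6 early genes lower and 8 mitosis genes higher, an adjusted p under 0.01 left 6 and 9, and the filter at the 60th percentile left 9 mitosis genes. Signs turned with median centring for Ccn1 (0.0042), Ccng1 (0.24), Cnp (0.072) and Sqstm1 (0.24). They turned with the mean of probe sets for Fosl2 (0.20), Mapk14 (-0.12), Rb1 (0.27) and, against FGF2, Unc13b (0.30). Without probe sets that can take up several transcripts they turned for Ccn1 (0.45), Gabarapl1 (0.11) and, against FGF2, Pltp (-0.042). Of 213 named genes called against vehicle, 39 lost the call under some alternative. With the replicate block 4698 genes were called against vehicle, 412 against FGF2, and 4971 for FGF2 against vehicle, although the numbers share nothing but a number here.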
